A study of Mus musculus with 5 samples.

Results

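The genes described here are the hypoxia-inducible factors, the machinery that senses oxygen for them and a pair of their targets, namely *Hif1a*, *Epas1*, *Hif3a*, *Arnt*, *Egln1*, *Egln2*, *Egln3*, *Vhl*, *Adm* and *Bnip3*. They were chosen by symbol, and each matched 1 Ensembl identifier in the annotation of mouse assembly NCBIM37. They make up 10 of the 34615 gene symbols in the files, and all 10 were among the 16286 symbols with a mean level of at least 1 FPKM, which scales the sequenced fragments of a gene to its length and to the depth of the library. RNA was sequenced from brain microvascular fragments of male mice on a C57BL6 background, 26 to 38 weeks old, with 1 library per mouse. The WT group held 3 wild-type littermates, and the Ins2-AKITA group held 2 mice heterozygous for the Ins2-AKITA allele, a mutation of the insulin 2 gene that kills pancreatic beta cells and raises blood glucose for most of the animal's life. The allele is carried by the whole animal, and the paper describes its toxicity as limited to the beta cells. According to the paper the mice also have low insulin, and their body weight stops rising early. These effects cannot be told apart from that of glucose here. The fragments were released with collagenase and caught on beads carrying an antibody to PECAM1, an endothelial surface protein. They therefore contain pericytes and astrocyte end-feet besides endothelial cells. The question put to the genes here was whether their RNA differed between hyperglycemic and WT vessels.

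Cells measure oxygen through a protein that is made continually and destroyed continually. The alpha subunits HIF1A and EPAS1 (also called HIF2A) are hydroxylated by the prolyl hydroxylases EGLN1, EGLN2 and EGLN3 when oxygen is present, and the hydroxylated form is recognised by VHL, the substrate receptor of a ubiquitin ligase, and degraded. When oxygen falls, the alpha subunits escape, pair with ARNT and bind DNA at a short core sequence, ACGTG or GCGTG, near genes for glycolysis, vessel growth and mitochondrial turnover. HIF3A is a more distant family member with forms that restrain the others. EPAS1 is known as the alpha subunit characteristic of endothelium. Because this control acts on the protein, the RNA of *Hif1a*, *Epas1* and *Vhl* does not report the activity of the pathway, whereas the RNA of targets such as *Egln3*, *Adm* and *Bnip3* is its usual readout.

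Depth was estimated from low FPKM values at 1125387 to 2845969 fragments per mouse, with WT replicate 3 the deepest. Endothelial markers were present as labelled (7 of 7 above 0 in every mouse), but the libraries were mixed. The summed FPKM of 5 astrocyte markers was 1456 to 2157 in WT and 2534 to 2918 in Ins2-AKITA mice, with 5 of 5 higher on average in Ins2-AKITA. The sum of 7 endothelial markers was 326 to 588 in WT and 278 to 358 in Ins2-AKITA mice, with 7 of 7 lower on average. Smooth muscle markers summed to 212 to 249 and 129 to 166 (4 of 4 lower), pericyte markers to 184 to 234 and 162 to 208 (4 of 5 lower), and red blood cell markers to 35.1 to 67.7 and 25.1 to 32.4 (5 of 5 lower, *Hbb-b2* at 0 in Ins2-AKITA replicate 2). Sums for 5 neuronal markers (601 to 693 against 602 to 702), 4 oligodendrocyte markers (1093 to 1676 against 1373 to 1496) and 5 microglial markers (109 to 138 against 103 to 113) overlapped between the genotypes. In bulk RNA of this kind, fewer cells of a type and less RNA per cell cannot be told apart. One library stood apart in a way that touches the results below. WT replicate 1 was at least 2 times above every other mouse for 3.07% of the 16286 genes, against 1.87%, 0.393%, 1.6% and 0.853% for WT replicates 2 and 3 and Ins2-AKITA replicates 1 and 2.

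With limma and Benjamini-Hochberg adjustment over all 16286 genes, 0 of the 10 genes passed an adjusted p of 0.05, and 0 of them had an unadjusted p under 0.05. Over all genes, 0.0246% passed the adjusted threshold and 4.46% had an unadjusted p under 0.05 (1.53% higher and 2.93% lower in Ins2-AKITA mice). The smallest adjusted p among the 10 genes was 0.90, for *Adm*. Their median log2 fold change, Ins2-AKITA against WT on the log2(FPKM + 1) scale, was 0.08, with 5 genes above 0 and 5 below, beside a median of -0.03 over all genes tested, of which 46.5% were above 0 and 53.5% below. The groups did not overlap for 2 of the 10, *Egln1* with both Ins2-AKITA mice above all WT mice and *Adm* with both below. Over all genes 19.5% were separated in this way, 9.24% above and 10.3% below, so the share among the 10 is near that of the background. With 3 mice against 2 an exact permutation test cannot give a p below 0.1.

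**Figure D1:**
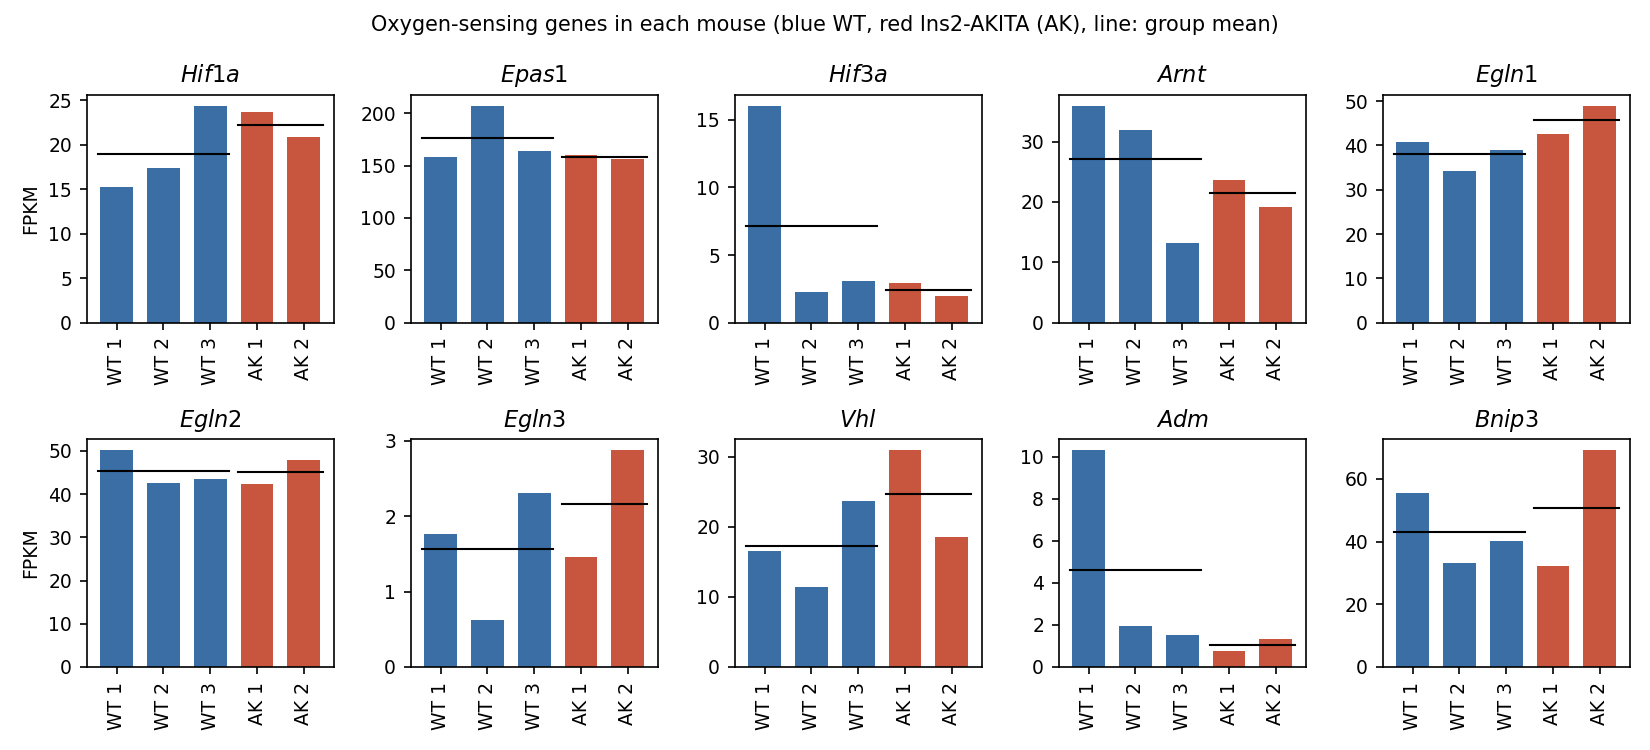
FPKM of each of the 10 genes (y axis, separate scale in each panel, starting at 0) in the 3 WT mice (blue) and the 2 Ins2-AKITA mice (red, AK), with black lines at the group means. The genotypes overlapped for 8 of the 10 genes, and *Hif3a* and *Adm* were high in WT replicate 1, at 16.0 and 10.3 FPKM, and at or below 3.06 FPKM in the other mice.

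Among the transcription factors, *Epas1* (ENSMUSG00000024140, chromosome 17 from 87153247 to 87232750, plus strand) had by far the highest level per length. WT mice (replicates 1 to 3 in order here and below) read 158, 207 and 164 FPKM, and the Ins2-AKITA pair (replicates 1 and 2) read 160 and 156 FPKM. The mice lay close together except for WT replicate 2, which lay above the rest and was also the mouse with the highest endothelial marker sum (588). The WT mean was 176 ± 26.7 (SD, n = 3), beside an Ins2-AKITA mean of 158 ± 2.71 (SD, n = 2). The log2 fold change was -0.15 (standard error 0.20, 95% interval -0.62 to 0.33), which on this scale covers ratios from 0.649 to 1.26. It was -0.027 without WT replicate 2 and between -0.22 and -0.13 without any other mouse. *Epas1* was above 97.9% of the tested genes in WT, and its values rest on an estimated 915 to 2369 fragments per mouse. All 7 endothelial markers had a lower mean in Ins2-AKITA mice as well, and the part of endothelial content in the *Epas1* value was not tested.

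*Hif1a* (ENSMUSG00000021109, chromosome 12 from 75002362 to 75048517, plus strand), the alpha subunit found in nearly all cell types, was at 15.2, 17.4 and 24.4 FPKM in the WT animals, against 23.7 and 20.8 FPKM with Ins2-AKITA. The Ins2-AKITA values fell inside the WT range, and the log2 fold change was 0.24 (95% interval -0.38 to 0.87), with 0.11 without WT replicate 1 and 0.43 without WT replicate 3. Within each mouse the *Epas1* level was between 6.71 and 11.9 times the *Hif1a* level, the lowest and the highest ratio both in WT mice (replicates 3 and 2), with 6.74 and 7.48 in the Ins2-AKITA mice. Of the summed FPKM of the 3 alpha subunit genes, *Epas1* made up 83.5% to 91.3% and *Hif1a* 7.66% to 12.8%.

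*Hif3a* (ENSMUSG00000004328, chromosome 7 from 17616856 to 17647776, minus strand) was at 16.0 FPKM in WT replicate 1, at 2.28 and 3.06 in its WT fellows, with 2.92 and 1.94 for the Ins2-AKITA pair. Apart from WT replicate 1, WT and Ins2-AKITA values overlapped. The WT mean of 7.12 ± 7.71 (SD, n = 3) was therefore 2.93 times the Ins2-AKITA mean of 2.43 ± 0.69 (SD, n = 2), with a log2 fold change of -0.85 (95% interval -2.63 to 0.94). Without WT replicate 1 the log2 fold change was -0.10 (95% interval -1.10 to 0.89). *Hif3a* held 8.45% of the alpha subunit sum in that mouse, and 1.00% in WT replicate 2, the lowest share.

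*Arnt* (ENSMUSG00000015522, chromosome 3 from 95238310 to 95301162, plus strand), the shared partner of the alpha subunits, was at 35.9, 32.0 and 13.2 FPKM in the WT animals, against 23.7 and 19.2 FPKM with Ins2-AKITA. Both Ins2-AKITA mice lay between WT replicates 2 and 3, and the log2 fold change was -0.21 (95% interval -1.26 to 0.84). It turned on single WT mice, being 0.044 without WT replicate 1 and -0.64 without WT replicate 3 (adjusted p = 0.58 from limma). *Arnt2*, a paralog known from neurons, was above *Arnt* in every mouse, by a factor of 1.48 in WT replicate 1 to 4.72 in WT replicate 3.

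The enzymes that hydroxylate the alpha subunits differed widely in level. *Egln2* (ENSMUSG00000058709, chromosome 7 from 27943677 to 27951821, minus strand) was the steadiest of the 10 genes, at 50.2, 42.7 and 43.5 FPKM in the WT animals, against 42.4 and 47.9 FPKM with Ins2-AKITA. Its highest value was 1.18 times its lowest, and its log2 fold change of -0.0076 (95% interval -0.45 to 0.44) had a sign that changed with median-ratio scaling, to 0.017. *Egln1* (ENSMUSG00000031987, chromosome 8 from 127432496 to 127473154, minus strand), the hydroxylase that sets HIF levels in most normally oxygenated cells, was at 40.9, 34.3 and 38.9 FPKM in the WT animals, against 42.6 and 48.9 FPKM with Ins2-AKITA. Both Ins2-AKITA mice were above every WT mouse, the nearer of them by under 2 FPKM. The Ins2-AKITA mean of 45.8 ± 4.48 (SD, n = 2) stood against a WT mean of 38.0 ± 3.37 (SD, n = 3), a ratio of 1.20, with a log2 fold change of 0.26 (standard error 0.19, 95% interval -0.19 to 0.71, limma p = 0.21 before adjustment and 0.90 after, exact permutation p = 0.1). The ratios that this interval spans run from 0.875 to 1.64. The direction was the same with any 1 mouse left out, with values from 0.16 to 0.36, but the order of the groups alone is shared by 9.24% of genes.

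*Egln3* (ENSMUSG00000035105, chromosome 12 from 55279968 to 55304847, minus strand) is the member of the family most strongly induced by hypoxia in many tissues. It had the lowest mean of the 10 genes over the 5 mice, at 1.76, 0.622 and 2.31 FPKM in the WT animals, against 1.46 and 2.87 FPKM with Ins2-AKITA, and supplied 0.801% to 2.88% of the summed FPKM of the 3 hydroxylase genes. These values correspond to an estimated 5, 2 and 16 fragments for WT, and to 4 and 9 fragments for Ins2-AKITA. At that depth the log2 fold change of 0.33 had a 95% interval from -0.94 to 1.60, which includes both higher and lower levels. It was 0.0012 without Ins2-AKITA replicate 2, 0.66 without Ins2-AKITA replicate 1 and 0.031 without WT replicate 2. The fragments pooled over mice gave a WT level 0.800 times that of Ins2-AKITA, with an exact 95% interval of 0.389 to 1.72 that covers counting error only. The same ratio was 1.098 (1.041 to 1.158) for *Epas1* and 0.831 (0.731 to 0.947) for *Egln1*. Both of these intervals exclude equal levels, as do those without WT replicate 1. They leave out the variation between mice, and the limma intervals of both genes include no difference.

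*Vhl* (ENSMUSG00000033933, chromosome 6 from 113573953 to 113581627, plus strand) was at 16.5, 11.4 and 23.8 FPKM in the WT animals, against 30.9 and 18.5 FPKM with Ins2-AKITA. Ins2-AKITA replicate 1 was the highest mouse, but WT replicate 3 lay above Ins2-AKITA replicate 2. The log2 fold change, 0.51 (95% interval -0.38 to 1.40), was the highest of the 10 genes and was 0.15 without Ins2-AKITA replicate 1, 0.26 without WT replicate 2 and 0.87 without Ins2-AKITA replicate 2.

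**Figure D2:**
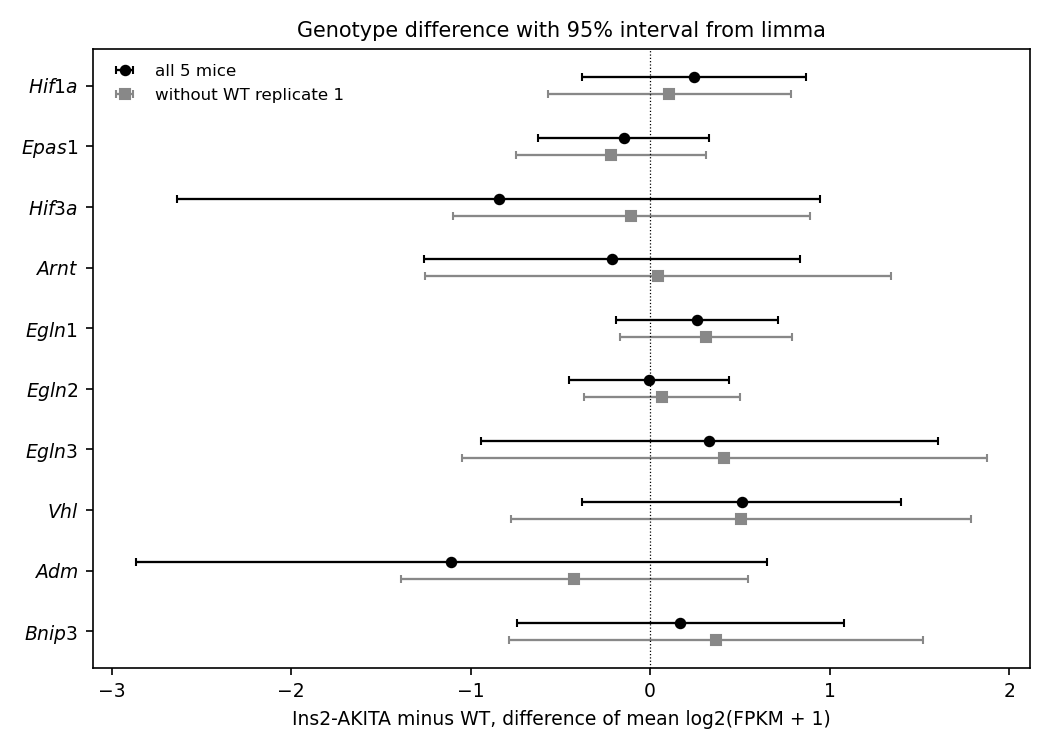
Difference between Ins2-AKITA and WT mice in mean log2(FPKM + 1) for each of the 10 genes (x axis), with 95% intervals from limma, for all 5 mice (black circles) and without WT replicate 1 (grey squares). Every interval includes 0, and leaving out WT replicate 1 moved *Hif3a* from -0.85 to -0.10 and *Adm* from -1.11 to -0.42.

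Of the targets, *Bnip3* (ENSMUSG00000078566, chromosome 7 from 146082519 to 146101202, minus strand) encodes a mitochondrial outer membrane protein that directs mitochondria to autophagy. WT mice read 55.6, 33.1 and 40.1 FPKM, and the Ins2-AKITA pair read 32.2 and 69.2 FPKM. The Ins2-AKITA mice held the lowest and the highest value of all 5, and leaving out Ins2-AKITA replicate 1 or 2 gave a log2 fold change of 0.71 or -0.37 in place of 0.17 (95% interval -0.74 to 1.08). *Bnip3* was nevertheless abundant, above 86.8% of the tested genes in WT.

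*Adm* (ENSMUSG00000030790, chromosome 7 from 117771175 to 117773331, plus strand) encodes adrenomedullin, a vasodilator peptide secreted by endothelial and other cells. It was at 10.3, 1.95 and 1.51 FPKM in the WT animals, against 0.764 and 1.34 FPKM with Ins2-AKITA. Both Ins2-AKITA mice lay below all WT mice, yet the gap to WT replicate 3 was small and the WT mean of 4.60 ± 4.97 (SD, n = 3) was set by WT replicate 1. The log2 fold change was -1.11 (standard error 0.73, 95% interval -2.87 to 0.65, adjusted p = 0.90 from limma, exact permutation p = 0.5). It was -0.42 (95% interval -1.39 to 0.54) without WT replicate 1. The annotation holds 1 transcript of 1387 nucleotides, and the values correspond to an estimated 14, 3 and 5 fragments for WT, and to 1 and 2 fragments for Ins2-AKITA. Pooled over mice and divided by depth, WT was 3.32 times Ins2-AKITA (22 against 3 fragments, exact 95% interval 0.996 to 17.3), and 1.54 times without WT replicate 1 (8 against 3 fragments, 0.371 to 9.04), intervals that again cover counting error only.

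The promoters of the targets and of *Hif3a*, which like *Adm* was highest in WT replicate 1, are shown to mark where the HIF core sequence occurs in them. Sequence farther from the start sites was not searched. Each line gives the 250 bases before the transcription start site, 5′ to 3′ in the direction of transcription, from RefSeq (GRCm38.p6 table) with the position of its single exact match in NCBIM37. Capitals mark ACGTG or GCGTG on the printed strand and their reverse complements CACGT and CACGC on the other strand.
*Adm* (chr7:117770921-117771170, plus strand): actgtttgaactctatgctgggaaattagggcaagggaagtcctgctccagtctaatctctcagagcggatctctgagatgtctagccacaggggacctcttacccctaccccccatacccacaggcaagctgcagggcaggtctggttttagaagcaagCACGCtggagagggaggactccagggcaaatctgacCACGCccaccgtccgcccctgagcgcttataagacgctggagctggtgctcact
*Hif3a* (chr7:17647777-17648026, minus strand): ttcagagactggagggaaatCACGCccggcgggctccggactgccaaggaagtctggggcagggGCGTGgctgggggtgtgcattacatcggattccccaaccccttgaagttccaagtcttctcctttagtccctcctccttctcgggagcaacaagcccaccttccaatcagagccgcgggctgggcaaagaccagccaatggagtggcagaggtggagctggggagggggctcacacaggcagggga
*Bnip3* (chr7:146101190-146101439, minus strand): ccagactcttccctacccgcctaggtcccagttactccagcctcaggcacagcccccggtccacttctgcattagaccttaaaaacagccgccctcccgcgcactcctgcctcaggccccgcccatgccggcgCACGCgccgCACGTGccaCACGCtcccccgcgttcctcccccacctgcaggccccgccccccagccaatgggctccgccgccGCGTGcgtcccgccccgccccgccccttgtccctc
*Egln3* (chr12:55304862-55305111, minus strand): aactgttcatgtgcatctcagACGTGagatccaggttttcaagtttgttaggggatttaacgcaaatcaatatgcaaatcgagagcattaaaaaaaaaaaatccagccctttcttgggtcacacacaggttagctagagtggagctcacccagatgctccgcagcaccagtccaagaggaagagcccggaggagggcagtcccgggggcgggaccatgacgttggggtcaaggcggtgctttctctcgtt

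In these windows *Adm* held 2 matches, at -90 and -54 counted from the start site, and *Hif3a* held 2, at -230 and -186, all of the GCGTG kind. *Bnip3* held 5, of which 2 overlap in the palindrome CACGTG and are the same site read on both strands, and *Egln3* held 1 ACGTG at -229. Of the 10 genes, 9 had an entry in the promoter table (*Epas1* had none), and 8 of these 9 held at least 1 match in the 300 bases from 250 before to 50 after a start site, all but *Vhl*. Counted as promoters, 9 of the 10 entries of these genes held either core and 5 held ACGTG. Among all 32851 promoters in the table, 43.8% held either core and 19.6% held ACGTG. Both cores contain CG, and the windows of the 10 entries were 49.3% to 86% G and C. The shares were not matched for base content, so no enrichment can be read from them. Such 5-base matches describe the sequence and are not evidence of binding.

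*Adm* and *Hif3a* had the widest range over the 5 mice, 2.68 and 2.53 on the log2(FPKM + 1) scale, against 1.38 or less for the other 8 genes. In WT replicate 1 *Hif3a* was 5.23 times and *Adm* 5.28 times the next highest mouse. These were 2 of the 10 genes, against 3.07% of all tested genes that reached 2 times in that mouse. Their profiles were compared with those of all other tested genes by the root mean square difference of log2(FPKM + 1) after centring each gene on its mean over the 5 mice. Nearest to *Adm* was *Ctgf*, which encodes a secreted matrix-associated growth factor, at a difference of 0.05, with 37.6, 9.41 and 7.57 FPKM in the WT animals, against 4.91 and 6.45 FPKM with Ins2-AKITA. It was followed by *Wdr62*, a spindle pole protein gene (0.12, 6.27 FPKM in WT replicate 1 and 0.294 to 0.910 elsewhere), and *Mtg1*, a mitochondrial GTPase gene (0.18, 22.0 FPKM and 3.70 to 7.80 elsewhere). Nearest to *Hif3a* were *Arl4d*, a small GTPase gene (0.10, 33.3 FPKM in WT replicate 1 and 4.72 to 6.90 elsewhere), *Cdkn1a*, which encodes the cell cycle inhibitor p21 (0.11, 36.1 FPKM and 6.01 to 8.07 elsewhere), and *A530098C11Rik* (0.12, 4.92 FPKM and 0 to 0.545 elsewhere). All 6 shared the single high value in WT replicate 1. They were picked from 16286 genes for being close, over 5 mice, so their closeness is a description. *Adm* and *Hif3a* themselves differed by 0.34 on this measure.

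**Figure D3:**
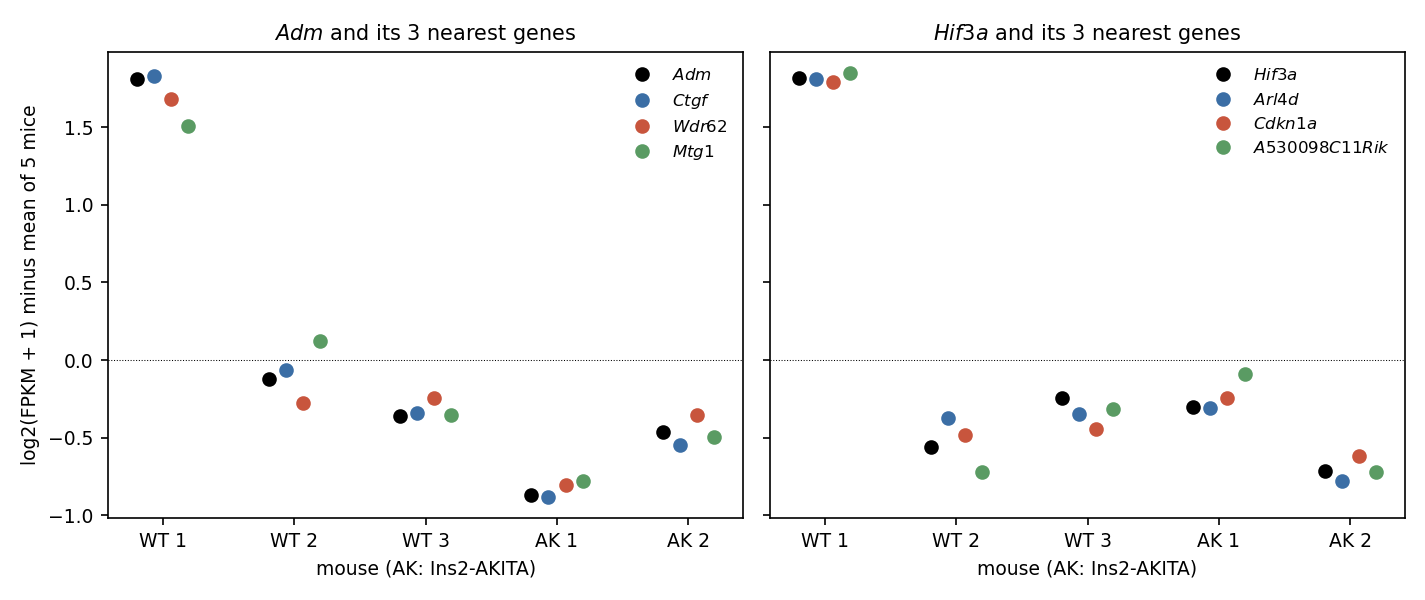
Log2(FPKM + 1) minus the mean of the 5 mice (y axis) in each mouse (x axis) for *Adm* and its 3 nearest genes (left) and *Hif3a* and its 3 nearest genes (right). All 8 genes stood above their mean in WT replicate 1, and the genes nearest to *Adm* were lowest in Ins2-AKITA replicate 1.

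The order of the 10 genes by mean FPKM over the 5 mice was *Epas1* (169), *Bnip3* (46.0), *Egln2* (45.3), *Egln1* (41.1), *Arnt* (24.8), *Hif1a* (20.3), *Vhl* (20.2), *Hif3a* (5.24), *Adm* (3.18) and *Egln3* (1.80). Only *Epas1* was separated from its neighbour over all mice, its lowest value of 156 lying above the highest *Bnip3* value of 69.2. All other neighbours in this order overlapped in range. Within mice, *Egln1* was above *Arnt*, *Vhl* above *Hif3a* and *Hif3a* above *Adm* in 5 of 5 mice, while *Bnip3* was above *Egln2* in 2 of 5, *Egln2* above *Egln1* in 3 of 5, *Arnt* above *Hif1a* in 2 of 5, *Hif1a* above *Vhl* in 3 of 5 and *Adm* above *Egln3* in 2 of 5.

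The 14 partners of the pathway, a list that holds the asparaginyl hydroxylase *Hif1an*, the other subunits of the VHL ligase, the coactivators and further binding proteins, were all tested. With limma 0 of 14 passed the adjusted threshold, and 0 had an unadjusted p under 0.05. Their median log2 fold change was -0.13, with 6 above 0 and 8 below. Both Ins2-AKITA mice lay below all WT mice for 5 of 14 (10.3% of all genes) and above for 0 of 14 (9.24%). These 5, named after their values were seen, were *Tceb2*, *Ep300*, *Siah1a*, *Usp33* and *Os9*. *Usp33*, the gene of a deubiquitinase known to bind VHL, was at 21.2, 18.3 and 17.6 FPKM in the WT animals, against 15.4 and 13.9 FPKM with Ins2-AKITA (log2 fold change -0.36, 95% interval -0.86 to 0.15, exact permutation p = 0.1). For *Tceb2*, the elongin B gene of the VHL ligase, the values were 98.1, 63.9 and 72.9 FPKM in the WT animals, against 62.1 and 57.9 FPKM with Ins2-AKITA (-0.36, 95% interval -0.91 to 0.20). *Siah1a*, a ubiquitin ligase gene, had the lowest log2 fold change (-0.39, 95% interval -1.26 to 0.47), and 9.56 FPKM in WT replicate 1 against 4.24 to 5.23 in the other mice. Without WT replicate 1 the log2 fold change of *Siah1a* was -0.13 and that of *Tceb2* was -0.18.

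At the other end of the list, *Tceb1*, the elongin C gene, had the highest log2 fold change (0.59, 95% interval -0.24 to 1.42), with 10.6, 9.34 and 19.8 FPKM in the WT animals, against 19.5 and 19.3 FPKM with Ins2-AKITA. WT replicate 3 was thus above both Ins2-AKITA mice, and the WT mice were split, with a log2 fold change of 0.90 without WT replicate 3 and 0.39 without WT replicate 2. *Hif1an*, whose product blocks coactivator binding when oxygen is present, was at 6.70, 23.1 and 13.1 FPKM in the WT animals, against 18.5 and 13.8 FPKM with Ins2-AKITA (0.31, 95% interval -0.86 to 1.47). Its sign turned to -0.11 without WT replicate 1. *Cul2*, the scaffold of the ligase, was at 7.88, 7.14 and 8.65 FPKM in the WT animals, against 8.38 and 11.6 FPKM with Ins2-AKITA (0.30, 95% interval -0.34 to 0.94). Its log2 fold change was 0.082 without Ins2-AKITA replicate 2 and 0.51 without Ins2-AKITA replicate 1.

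A list of 35 further genes widely known as HIF targets was described in the same way. Of these, 29 were tested, and the rest averaged less than 1 FPKM. Among the rest, *Epo*, the hormone gene through which HIF was discovered, is listed at 0 in all 5 mice. *Lox* fell just short of the cut, with a mean of 0.989 FPKM. It was at 1.31, 1.16 and 1.66 FPKM in the WT animals, against 0.627 and 0.183 FPKM with Ins2-AKITA, so its groups did not overlap. With limma 0 of 29 passed the adjusted threshold, and 0 had an unadjusted p under 0.05. The median log2 fold change was -0.03, the same to 2 decimals as that of all genes, with 14 above 0 and 15 below. The groups did not overlap for 2 of 29, *Bnip3l* above and *Hmox1* below (19.5% of all genes in either direction). With no filter on low values, 1 of the 35 had an unadjusted p under 0.05 from limma, beside 1057 of all 34615 symbols.

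*Bnip3l*, the paralog of *Bnip3* with a like role in removing mitochondria, had the highest log2 fold change of the list. WT mice read 174, 151 and 202 FPKM, and the Ins2-AKITA pair read 270 and 220 FPKM, both above all WT mice, and the log2 fold change was 0.48 (standard error 0.21, 95% interval -0.03 to 0.99, limma p = 0.061 before adjustment and 0.90 after, exact permutation p = 0.1). The *Bnip3l* level was 3.14 to 8.39 times that of *Bnip3*, with both Ins2-AKITA mice near the ends of that range (8.39 and 3.18). Next were *Higd1a*, a mitochondrial inner membrane protein gene, with 4.16, 4.60 and 8.53 FPKM in the WT animals, against 7.54 and 8.51 FPKM with Ins2-AKITA (0.47, 95% interval -0.39 to 1.33), and *Pdk1*, which holds pyruvate back from mitochondria, with 14.8, 10.4 and 8.48 FPKM in the WT animals, against 9.02 and 19.8 FPKM with Ins2-AKITA (0.27, 95% interval -0.68 to 1.22). The *Higd1a* value was 0.30 without WT replicate 1 and 0.75 without WT replicate 3. The *Pdk1* sign rested on Ins2-AKITA replicate 2, without which it was -0.25. Like *Bnip3*, *Pdk1* had its highest value in Ins2-AKITA replicate 2.

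The lowest log2 fold changes belonged to genes in which 1 or 2 mice stood out. *Hmox1*, the heme-degrading oxygenase, was at 12.2, 9.47 and 9.33 FPKM in the WT animals, against 0.642 and 8.57 FPKM with Ins2-AKITA (-1.50, 95% interval -3.22 to 0.21), and was -0.23 without Ins2-AKITA replicate 1. *Angptl4*, a lipoprotein lipase inhibitor, was at 16.5, 1.88 and 1.93 FPKM in the WT animals, against 0 and 3.17 FPKM with Ins2-AKITA (-1.37, 95% interval -3.79 to 1.05), and was the 1 gene of the 29 that reached 2 times every other mouse in WT replicate 1, at 5.20 times the next mouse. Its log2 fold change was -0.34 without Ins2-AKITA replicate 1 and -0.51 without WT replicate 1. *Ddit4*, a stress-induced inhibitor of mTORC1, was at 30.5, 12.4 and 13.5 FPKM in the WT animals, against 6.08 and 16.5 FPKM with Ins2-AKITA (-0.72, 95% interval -1.99 to 0.56). Its log2 fold change was -0.06 without Ins2-AKITA replicate 1 and -0.32 without WT replicate 1, which was 1.85 times the next mouse. WT replicate 1 was the highest mouse for 7 of the 29 targets, 8 of the 14 partners and 4 of the 10 genes, beside 28.4% of all genes. The other mice were highest for 21.2% (WT replicate 2), 11.1% (WT replicate 3), 16.8% and 22.4% (Ins2-AKITA replicates 1 and 2) of all genes.

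**Figure D4:**
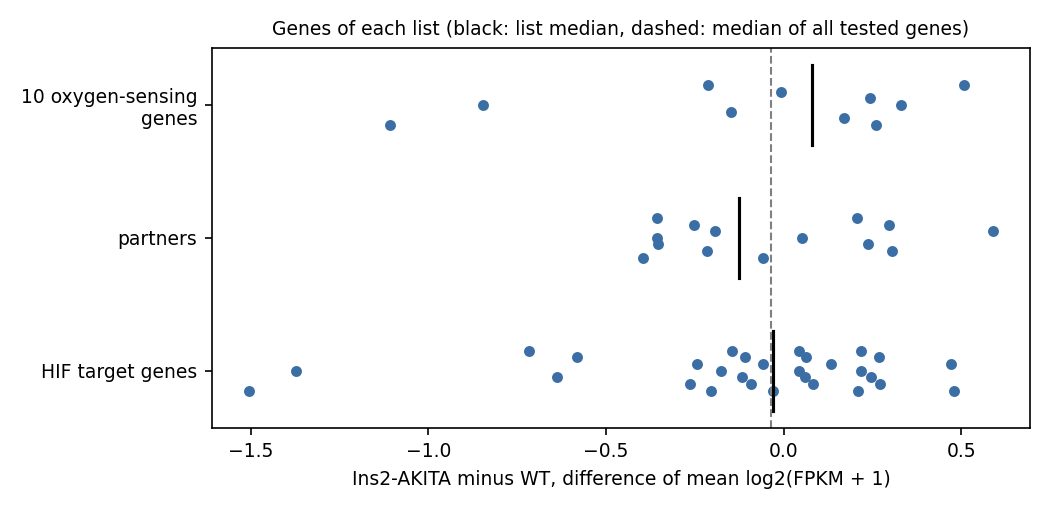
Log2 fold change, Ins2-AKITA against WT, on the log2(FPKM + 1) scale (x axis) for each tested gene of the 3 lists (rows, points spread vertically for legibility), with black bars at the list medians of 0.08, -0.13 and -0.03 and a dashed line at the median of all tested genes (-0.03). The points lie on both sides of 0 in each list, and those below -0.8 are *Hif3a* and *Adm* in the top row and *Hmox1* and *Angptl4* in the bottom row.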

How the data were processed

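Brain microvascular RNA of 3 WT and 2 Ins2-AKITA mice was sequenced. Per the labels and the study's methods, ribosomal and transfer RNA was depleted, stranded total RNA libraries were made, reads were mapped to NCBIM37 with TopHat2 2.0.4, duplicated reads were removed with Picard 1.92, and Cufflinks 2.2.1 was used for statistical tests. The deposited values are FPKM, 1 per Ensembl gene and mouse. The program that made them is not given in the sources used here. Removing duplicates can lower values of short, abundant genes.

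Of 37982 identifiers, 37197 matched the GENCODE vM1 annotation of NCBIM37. Rows sharing a symbol were summed. Symbols whose FPKM averaged 1 or more were tested on log2(FPKM + 1) with limma 3.58.1 (R 4.3.3, eBayes with a trend), two-sided, with genotype as the only factor. Fold changes on this scale understate changes of low genes. FPKM were not rescaled to a common sum over all rows, since rows outside protein-coding genes made up 72.5% to 96.9% of it. Exact two-sided permutation tests compared mean FPKM over all 10 assignments of the 5 mice. Fragments were estimated from single-transcript genes, of whose low values 97.0% to 97.4% were within 0.05 of a whole number. A length correction in the estimate was chosen to make that share as high as possible, so the share is no independent check. Python 3.11.15 was used elsewhere.

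The genes, lists and marker sets were chosen with earlier results of these data known. All 10 genes are named, and from each other list the 3 highest and 3 lowest log2 fold changes, with the 3 genes nearest in pattern to each of *Adm* and *Hif3a*, those with the widest range. *Slc2a1* is named because the study reported it, and *Epo* and *Lox* as targets that were not tested. The mice are separate animals. Other experiments of the study were not analysed here.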

Additional observations from a re-analysis of the deposited data

How the results depend on the processing

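The counts of 0 past the adjusted p of 0.05 for the 10 genes, the 14 partners and the 29 targets stayed at 0 in limma under every alternative (pseudocount of 0.1, no filter, a filter at 5 FPKM, an equal sum over protein-coding genes, quantile normalization, a constant prior variance, scaling by median ratios, the highest row per symbol, the replicate block and each mouse left out). With 1 mouse left out, the medians of the 3 lists ranged from -0.08 to 0.12, -0.16 to -0.01 and -0.02 to 0.03. The filter at 5 FPKM kept 8 of the 10 genes. Leaving out an Ins2-AKITA mouse leaves 1, which limma takes to vary like the WT mice.

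Over all genes, the 0 higher became 34 with no filter and 1 with a constant prior, and the 4 lower became 1 with no filter and 2 with the filter at 5 or a constant prior. With 1 mouse left out they ranged from 0 to 10 and from 1 to 6. Of 247 values of single genes with all 5 mice, 246 kept their sign, and *Egln2* became 0.017 with median-ratio scaling. The filters and the constant prior leave the log2 fold change of a gene as it is. The highest row per symbol does the same for genes with 1 identifier. Those settings could not change a sign, so the 246 overstate what was tested. Of 140 values with 1 mouse left out, 132 kept their sign. The ranges of those that did not were -0.64 to 0.044 for *Arnt*, -0.37 to 0.71 for *Bnip3*, -0.093 to 0.078 for *Egln2*, -0.11 to 0.71 for *Hif1an*, -0.25 to 0.80 for *Pdk1*, -1.10 to 0.031 for *Cdkn1a* and -1.17 to 0.11 for *A530098C11Rik*. Apart from the left-out mouse, the cause was not tested.

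The labels number the mice of both genotypes without naming pairs. With the replicate block, in which WT replicate 3 has no partner, the median of the 10 genes was 0.05, and *Arnt* (-0.64) and *Vhl* (0.76) passed an unadjusted threshold of 0.05, each with an adjusted p of 0.60 from limma. Unadjusted calls over all genes rose from 726 to 1249, with 1 partner (*Tceb1*) and 2 targets among them. In this fit WT replicate 3 does not enter the genotype difference. With that mouse left out and no block, *Arnt* and *Vhl* had the same log2 fold changes, and unadjusted calls were 1402. *Arnt* then had an unadjusted p of 0.03 from limma. The rise therefore cannot be read as an effect of pairing. Same-numbered mice had correlations of deviations across genes of 0.05 and -0.03, and because the 2 Ins2-AKITA deviations are exact opposites, this cannot show pairing. Among the 4 of the 10 genes with a fragment estimate, *Adm* and *Egln3* had the lowest, at 16 or fewer per mouse.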
